A study of Mus musculus with 2 samples.

Results

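The hedgehog pathway genes of the embryonic mouse ureter were read on every array probe that carried one of 9 gene names: the ligand Shh, the receptor Ptch1, the ligand-binding inhibitor Hhip, the co-receptors Boc and Cdon, the transducer Smo, and the transcription factors Gli1, Gli2 and Gli3. The names found 14 of 39429 probes. Of these, 13 were well above background, and they measured all 9 genes, among 22311 genes or unnamed features in all.

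Ureters of wild-type NMRI embryos of mixed sex, taken at E13.75 (days after conception), were grown on membranes for 18 h. The NOGGIN samples had 10 µg/ml of NOGGIN in the medium and the control samples had none. NOGGIN is a secreted antagonist: it captures bone morphogenetic proteins (BMPs) before they reach their receptors. Dye was coupled to RNA made from 200 ng of each sample's total RNA, and each of 2 two-colour arrays received 1 NOGGIN and 1 control sample, with the colours swapped on the second array. At issue is how the ureter's transcripts change under a BMP block. A whole organ was pooled with all its cell types, and the labels number the samples without saying that they came from separate litters, so p-values measure only the spread between these samples.

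Hedgehog ligands bind the receptor PTCH1, which otherwise holds the transducer SMO inactive, and active SMO turns GLI proteins from repressors into activators. Co-receptors such as CDON and BOC help the ligand to bind, and PTCH1, HHIP and GLI1 are made in answer to the signal, so that PTCH1 and HHIP then dampen it. In the developing ureter the epithelium (urothelium) makes SHH and the surrounding mesenchyme, which forms the smooth muscle coat, receives it, and BMP4 is made by that mesenchyme.

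The probes decide which stretch of a transcript was read, so the sequences that carry the results for Cdon, Hhip, Ptch1 and Smo, the 4 members with more than 1 detected probe, are given first. Each probe has 60 bases, of which the first 30 are shown as the array design gives them, in lower case throughout because no base is singled out. Positions are on mouse build mm9, and whether a probe falls in a coding exon or a UTR was not analysed here.
Cdon, brightest probe: tgtgtgaagttgtacatactctaagtgatg
Cdon, other probe: caggcctggggacaaactgtgtgaaggaca
Hhip, brightest probe: gcagtagccttcatctgtaggttaatagtc
Hhip, other probe: tatagaattatgaccatgagcatgaaagac
Ptch1, brightest probe: catttggatgttttaatttgtaaaagaaaa
Ptch1, other probe: ttcatgtcaggtgtgagaggagggactcaa
Smo, brightest probe: aatgtctagtcattttcatagtgccccaca
Smo, other probe: taaaactgcaatgagcacacacagacacac
The brightest probes lie at chr9:35315141-35315200 for Cdon, chr8:82494280-82494339 for Hhip, chr13:63610298-63610357 for Ptch1 and chr6:29711225-29711284 for Smo. The other probes lie at chr9:35311862-35311922 for Cdon, chr8:82490729-82490788 for Hhip, chr13:63612879-63612938 for Ptch1 and chr6:29710919-29710978 for Smo.

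Values are log2 ratios, with the channel labelled NOGGIN set over that labelled control, or log2 normalised intensities of 1 channel (levels). A level is compared between samples for the same probe and never between probes. The direction needs a caution at the first signed value. By the dye labels, Id1, a gene that BMP signalling is known to switch on, had ratios of 2.21 and 2.08 on arrays 1 and 2, higher in the channel labelled NOGGIN, which is the opposite of what a BMP antagonist is known to do. The authors' deposited table gives the same probe signed fold changes of -4.652 and -4.527, while the array titles name NOGGIN before control. Which of these directions is right was not settled by the sources. All signs here follow the dye labels; if those labels are exchanged, every sign turns and every size stays.

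By the fold rule, which asks for a 1.5-fold or larger difference of 1 sign on each array, 1 of the 9 hedgehog genes was lower in the channel labelled NOGGIN (Cdon), 0 were higher and 8 were neither. Over all genes the rule took 2.19%, with 1.25% lower and 0.941% higher. With limma's moderated test adjusted by Benjamini-Hochberg over all genes, 0 hedgehog genes passed 0.05, as did 0% of all genes; 1 hedgehog gene had an unadjusted p under 0.05, against 6.04% of all genes. The median log2 ratio over the hedgehog genes was -0.12, and over all genes it was -0.006. By array, the hedgehog median was 0.003 on array 1 and -0.39 on array 2, while that of all genes was 0.02 and -0.05. Gene by gene, 2 were higher on both arrays at any size (Hhip and Boc), 3 were lower on both (Shh, Cdon and Gli3), and Ptch1, Smo, Gli1 and Gli2 had opposite signs on the arrays. On array 1 the ratio of Boc was only 0.003 and that of Gli3 only -0.04, so their signs there carry little weight. The share of all genes with the same sign on both arrays was 43.7%, with 20.4% higher and 23.3% lower. No direction was shared by all 9 genes.

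**Figure D1:**
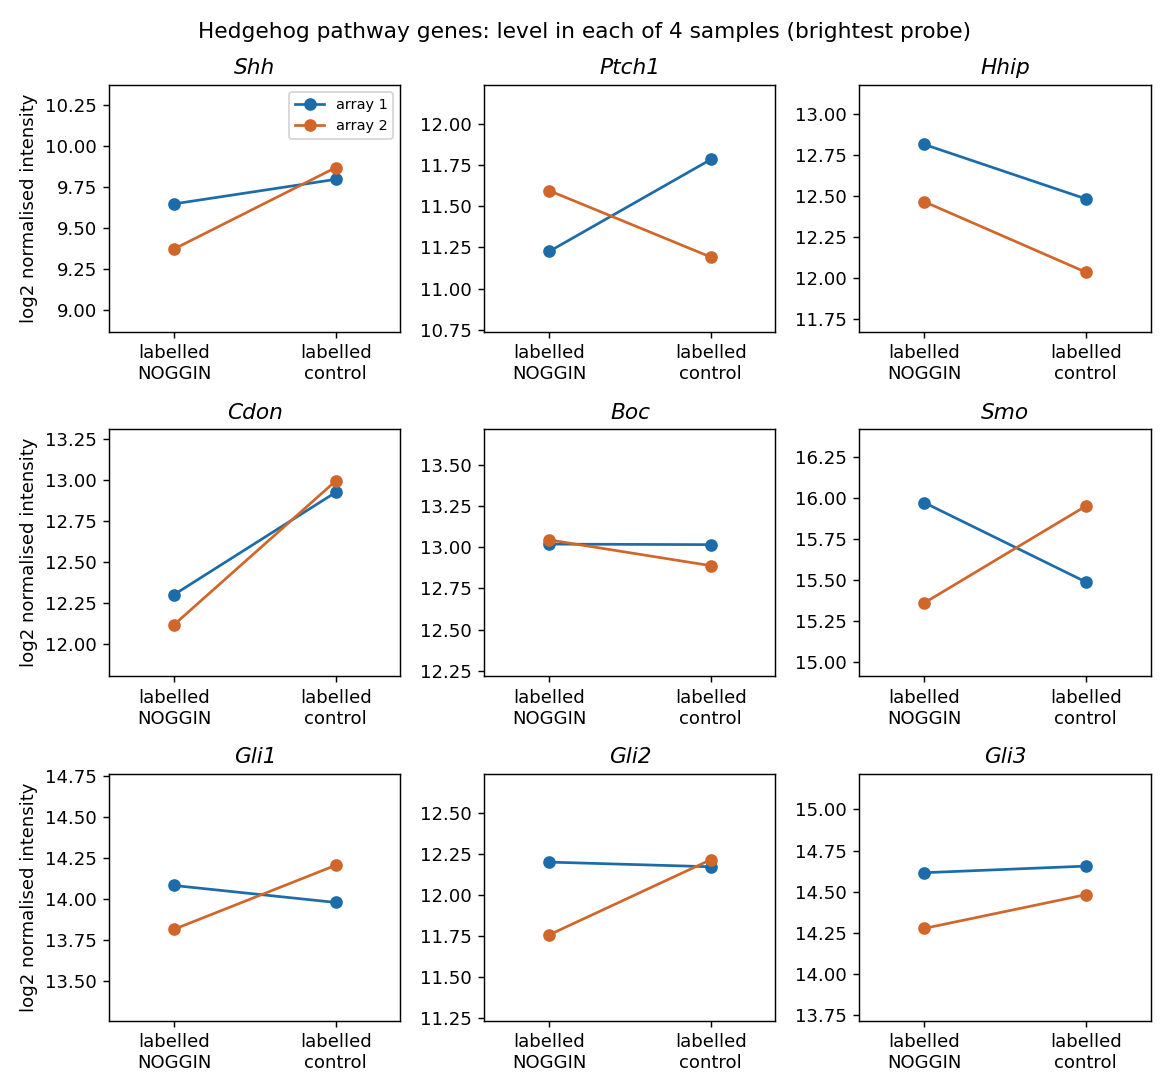
Level of each hedgehog gene in the 4 samples, as log2 normalised intensity of its brightest probe; lines join the 2 samples of an array (blue, array 1; orange, array 2), with samples labelled NOGGIN at the left and samples labelled control at the right. Every panel spans the same log2 range. Both Cdon lines climb to the control side (12.30 and 12.12 in samples labelled NOGGIN, 12.92 and 12.99 in samples labelled control). For Ptch1, Smo, Gli1 and Gli2, 1 line climbs to the control side and the other falls.

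Of the co-receptors, Cdon passed the fold rule and Boc did not. CDON, a transmembrane protein that binds hedgehog ligand together with PTCH1, had the largest difference of the 9 genes on the brightest probes; with the mean over all kept probes Hhip was larger (0.64 against -0.54 for Cdon). Its level was 12.30 and 12.12 in the samples labelled NOGGIN, against 12.92 and 12.99 in those labelled control. The groups did not overlap, and both samples labelled NOGGIN were below both controls. The share of all genes with groups apart in this way was not counted, so no weight is placed on such a separation, here or for Shh and Ihh below. The log2 ratios of -0.62 and -0.87 gave a mean of -0.75 ± 0.18 (SD, n = 2 arrays), which is 1.68-fold lower. The 95% interval from limma ran from -1.17 to -0.32, with an unadjusted p = 0.005675 and an adjusted p = 0.3049. Among 22311 genes this mean stood at place 290 from the lowest. The other Cdon probe, which was much dimmer, had a level of 7.20 and 6.999 in samples labelled NOGGIN and 7.55 and 7.33 in samples labelled control. Its ratios of -0.34 and -0.33 had the same sign and a smaller size, and neither the mean over both probes (-0.54) nor, under median centring in place of loess, the brightest probe (-0.79) passed the fold rule, which each array has to meet. BOC, the related co-receptor, had 13.02 and 13.05 in samples labelled NOGGIN against 13.02 and 12.89 in samples labelled control. Its log2 ratios were 0.003 and 0.16, with a mean of 0.08 ± 0.11 (SD, n = 2) and a 95% interval from -0.33 to 0.49. The intervals of Cdon and Boc barely overlap, and the difference between the genes was not tested.

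In RNA from a whole organ, fewer cells of a type and less RNA per cell cannot be told apart. Of 8 smooth muscle markers, 6 were lower on both arrays at any size, as Cdon was, against 23.3% of all genes. By the fold rule 3 were lower (Tagln -0.98, Cnn1 -0.80 and Actg2 -0.65), against 1.25% of all genes. By the same rule 1 was higher (Myocd, a transcription factor that drives the muscle genes, 1.05), against 0.941%. The mean level over all 8 was 12.45 and 12.52 in samples labelled NOGGIN against 12.95 and 12.89 in samples labelled control. Of 10 ureteric mesenchyme markers, 2 passed the fold rule as higher (Sox9 1.21 and Tbx18 0.77) and 0 as lower. At any size, 7 of the 10 had a negative ratio on each array, as Cdon had, against 23.3% of all genes. The remaining 3 had a positive ratio on each array, and the median of the list was -0.27. Its mean level was 15.31 and 15.21 in samples labelled NOGGIN and 15.28 and 15.29 in samples labelled control. All 8 muscle markers and all 10 mesenchyme markers were above background in the 4 samples, and their part in the result for Cdon was not tested. Among 130 genes of the other lists, the 3 nearest to Cdon in their ratios on the 2 arrays were Krt5, a keratin of basal epithelium (-0.54 and -0.76, a distance of 0.146), Des, the muscle filament protein desmin (-0.48 and -0.77, 0.171), and Sfrp1, a secreted inhibitor of WNT signalling (-0.66 and -1.05, 0.176). With 2 arrays this likeness rests on 2 values per gene.

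The ligand gene Shh was on the lower side on both arrays by a small amount. Its level was 9.65 and 9.37 in samples labelled NOGGIN, against 9.80 and 9.87 in samples labelled control. The groups did not overlap, but the nearest samples were close to each other. The ratios of -0.15 and -0.50 gave a mean of -0.32 ± 0.24 (SD, n = 2), with a 95% interval from -0.76 to 0.12 and an adjusted p of 1 from limma. Markers of the urothelium, the tissue that makes SHH in the ureter, had 0 of 15 genes past the fold rule, against 2.19% of all genes. All 15 were above background in the 4 samples, their median ratio was close to that of all genes (-0.0009), and their mean level was 13.23 and 13.12 in samples labelled NOGGIN and 13.16 and 13.24 in samples labelled control.

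None of the receptor and feedback genes Ptch1, Hhip and Gli1 passed the fold rule, their 95% intervals overlapped, and differences between them were not tested. Ptch1 had a level of 11.23 and 11.60 in samples labelled NOGGIN, against 11.79 and 11.19 in samples labelled control, so the 4 samples overlapped. Its ratios of -0.56 and 0.40 had opposite signs, with a mean of -0.08 ± 0.68 (SD, n = 2) and a 95% interval from -0.74 to 0.58. The other Ptch1 probe did the same, with -0.27 and 0.70 and a mean of 0.21 ± 0.68. After normalization the red channel was the brighter one for both probes on both arrays. This part of the ratio, averaged over the arrays as red over green, was 0.48 for each probe on the log2 scale. For the brightest probe it was larger in size than for 95.8% of all genes, and larger than the difference by label. With 2 arrays, a dye effect cannot be told apart from a difference between the 2 pairs of samples.

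Hhip encodes a membrane protein that binds hedgehog ligands and keeps them from PTCH1. Its level was 12.81 and 12.46 in samples labelled NOGGIN, against 12.48 and 12.04 in samples labelled control. The sample labelled NOGGIN was higher within each array, while across arrays the groups overlapped slightly. The ratios of 0.33 and 0.43 gave a mean of 0.38 ± 0.07 (SD, n = 2), 1.30-fold higher, with a 95% interval from -0.02 to 0.78 and an adjusted p = 0.8821 from limma. The other Hhip probe also had the higher level in samples labelled NOGGIN, 10.10 and 10.26, against 9.68 and 8.88 in samples labelled control. Its ratios of 0.43 and 1.38 averaged 0.90 ± 0.67 (SD, n = 2), and by these ratios array 2 but not array 1 was past 1.5-fold. The authors' deposited table gives this Hhip probe signed fold changes of -1.531 and -2.329, past 1.5-fold on both arrays. Both probes had the same direction on both arrays, and the size differed between them.

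Gli1, a transcription factor whose own gene answers to hedgehog signalling and serves as its usual readout, had a level of 14.08 and 13.82 in samples labelled NOGGIN and 13.98 and 14.21 in samples labelled control. The ratios of 0.10 and -0.39 had opposite signs, with a mean of -0.14 ± 0.35 (SD, n = 2) and a 95% interval from -0.63 to 0.34. A further probe that carries the name Gli1 was not above background in any of its 4 spots in any sample. The feedback genes thus had means of -0.08 for Ptch1, -0.14 for Gli1 and 0.38 for Hhip.

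**Figure D2:**
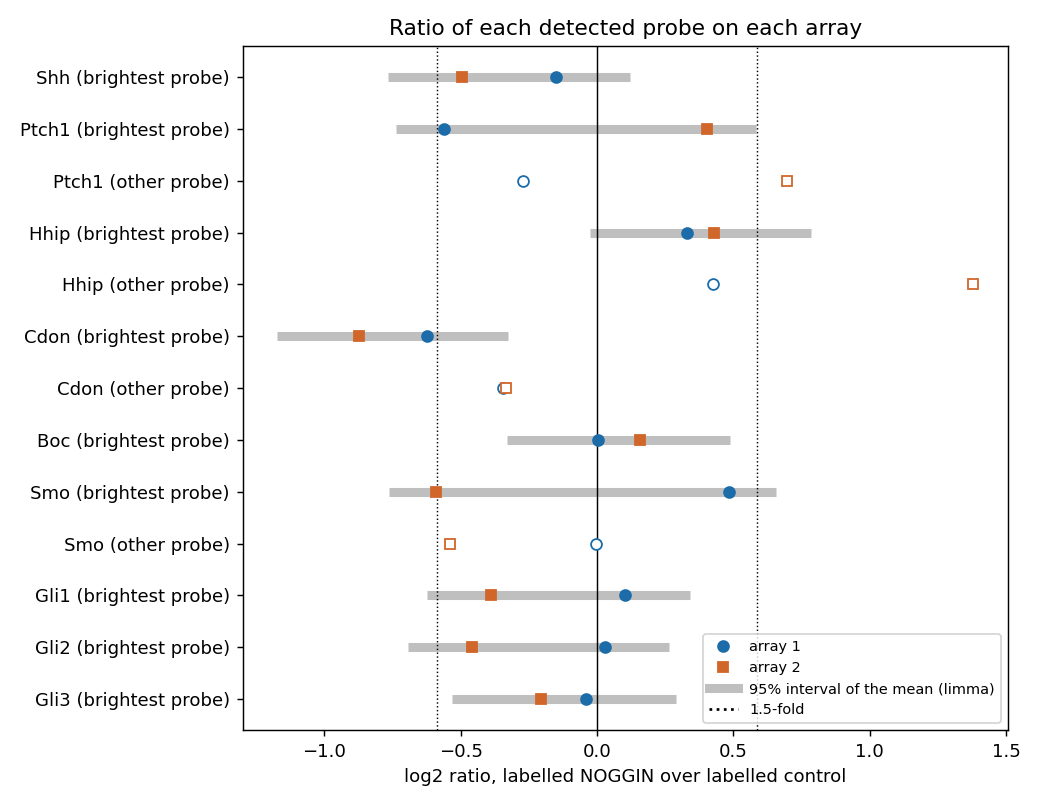
Log2 ratio, labelled NOGGIN over labelled control, of each of the 13 detected probes on array 1 (circles) and array 2 (squares); filled symbols are the brightest probe of a gene, open symbols the other probe, grey bars the 95% interval of the mean from limma for the brightest probe, and dotted lines mark 1.5-fold. Both probes of Cdon lie left of 0 and both of Hhip right of 0, while both Ptch1 probes have array 1 left and array 2 right of 0.

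Smo, the transducer between receptor and GLI factors, had the other large split between the arrays. Its level was 15.97 and 15.36 in samples labelled NOGGIN, against 15.49 and 15.95 in samples labelled control. The ratios of 0.48 and -0.59 gave a mean of -0.05 ± 0.76 (SD, n = 2) and a 95% interval from -0.76 to 0.66. Here the green channel was the brighter one on both arrays after normalization, with a red over green part of -0.54. That size was larger than for 97.0% of all genes. Again a dye effect and a difference between the pairs of samples cannot be told apart. The other Smo probe had ratios of -0.004 and -0.54, with a mean of -0.27 ± 0.38.

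Gli2, the main activator of the pathway, and Gli3, its main repressor, did not pass the fold rule. Gli2 had a level of 12.20 and 11.76 in samples labelled NOGGIN and 12.17 and 12.21 in samples labelled control. Its ratios were 0.03 and -0.46, with a mean of -0.21 ± 0.34 (SD, n = 2) and a 95% interval from -0.69 to 0.27. Gli3 had a level of 14.62 and 14.28 in samples labelled NOGGIN and 14.66 and 14.48 in samples labelled control. Its ratios were -0.04 and -0.21, with a mean of -0.12 ± 0.12 and a 95% interval from -0.53 to 0.29. The intervals of Gli3 and Boc leave out a 1.5-fold difference (0.585 on the log2 scale) in either direction, those of Shh, Cdon, Ptch1, Gli1 and Gli2 leave it out in the higher direction only, that of Hhip in the lower direction only, and that of Smo in neither. Across the 9 genes the red over green part was larger than the difference by label in 4 (Ptch1, Smo, Gli1 and Gli2), against 56.3% of all genes. It is larger exactly where the 2 ratios have opposite signs, so this count only repeats the count by sign.

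**Figure D3:**
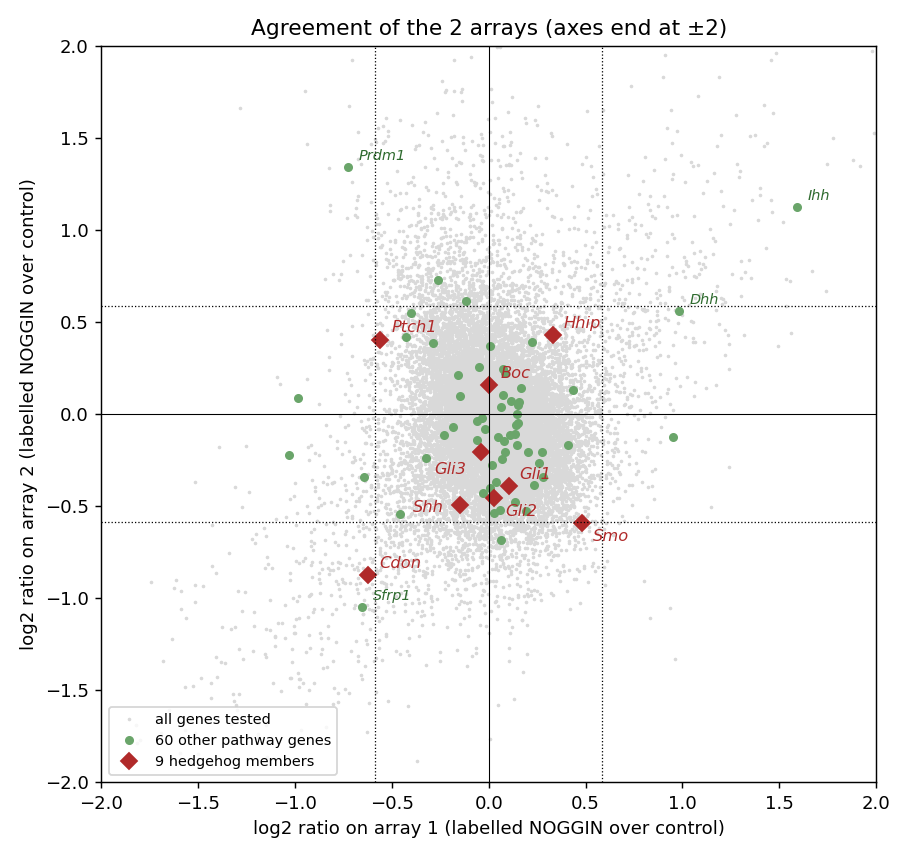
Log2 ratio of each gene on array 1 (horizontal) and array 2 (vertical), both labelled NOGGIN over labelled control; grey points are all genes, green circles the 60 other pathway genes, red diamonds the 9 hedgehog members, dotted lines mark 1.5-fold, and 122 genes lie outside the axes. Cdon (-0.62, -0.87) is the member in the lower left corner past both lines, and Ptch1 and Smo lie in opposite corners where the arrays disagree.

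The wider pathway was read in 60 further genes, all measured. By the fold rule 1 was higher (Ihh), 1 was lower (Sfrp1), 1 was past 1.5-fold in opposite directions (Prdm1) and 57 were neither; 0 passed the adjusted p and 6 had an unadjusted p under 0.05 in limma, against 2.19% of all genes past the fold rule and 6.04% with such an unadjusted p. The median over the 60 genes was -0.003.

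Among 10 genes of other ligands and of ligand release, Ihh had the largest value. Ihh, a second hedgehog ligand, had a level of 10.01 and 10.00 in samples labelled NOGGIN, against 8.42 and 8.88 in samples labelled control. Both samples labelled NOGGIN were above both controls. The ratios of 1.59 and 1.13 gave a mean of 1.36 ± 0.33 (SD, n = 2), with a 95% interval from 0.88 to 1.83, an unadjusted p = 0.0005929 and an adjusted p = 0.1246 from limma. The third ligand gene, Dhh, had a level of 8.28 and 8.41 in samples labelled NOGGIN, against 7.29 and 7.86 in samples labelled control. Its probe was dim. On array 1 the raw signal of the sample labelled control was 112.8, against a mean local background of 66.3 in that channel (red). Dhh had ratios of 0.98 and 0.56, just short of the fold rule on array 2. Its mean was 0.77 ± 0.30 (SD, n = 2) with an adjusted p = 0.3462 from limma, and on the processed signals its mean was 1.17. The authors' deposited table gives the Dhh probe signed fold changes of -2.814 and -1.707, past 1.5-fold on both arrays. By contrast with Ihh and Dhh, Shh had a mean of -0.32; the difference between the ligands was not tested. The median of the ligand list was -0.17, and 9 of its 10 genes were neither higher nor lower.

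Of 11 other genes of reception, 0 passed the fold rule and the median was -0.03. The largest was Lrp2, which encodes the endocytic receptor megalin, with ratios of -0.46 and -0.54 and a mean of -0.50 ± 0.06 (SD, n = 2). Gas1, which encodes a ligand-binding co-receptor that acts alongside CDON and BOC, had -0.64 and -0.34 with a mean of -0.49 ± 0.21 on its brightest probe. Its 2 other probes had means of -0.25 and 0.27, so the probes of Gas1 did not give 1 direction.

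The machinery downstream of SMO had medians close to 0. Signs on the 2 arrays differed for 8 of 14 transduction genes and 6 of 10 cilium genes, against 12552 of all 22311 genes. Of 14 genes of intracellular transduction, 0 passed the fold rule, with a median of 0.006 and a range from -0.28 to 0.25; the largest was the kinase gene Gsk3b (-0.28 ± 0.06), and Sufu, the main inhibitor of GLI proteins, had -0.13 ± 0.08 (SD, n = 2). Of 10 cilium genes, which the pathway needs because SMO acts in the cilium, 0 passed, with a median of 0.02 and the largest value at Kif3b (0.23 ± 0.70).

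Of 15 genes known to respond to hedgehog signalling in various tissues, 0 were higher and 1 was lower, with a median of -0.002. The gene that was lower was Sfrp1, at -0.66 and -1.05, with a mean of -0.85 ± 0.28 (SD, n = 2) and an adjusted p = 0.2705 from limma. Prdm1, a transcriptional repressor, was at -0.73 on array 1 and 1.34 on array 2. Foxf1, a forkhead factor of visceral mesenchyme, had 0.12 ± 0.41, and its other probe had 0.20 ± 0.02. The probe of Nkx6-1 was not above background in 2 of the 4 samples, and the others were above it in all 4.

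**Figure D4:**
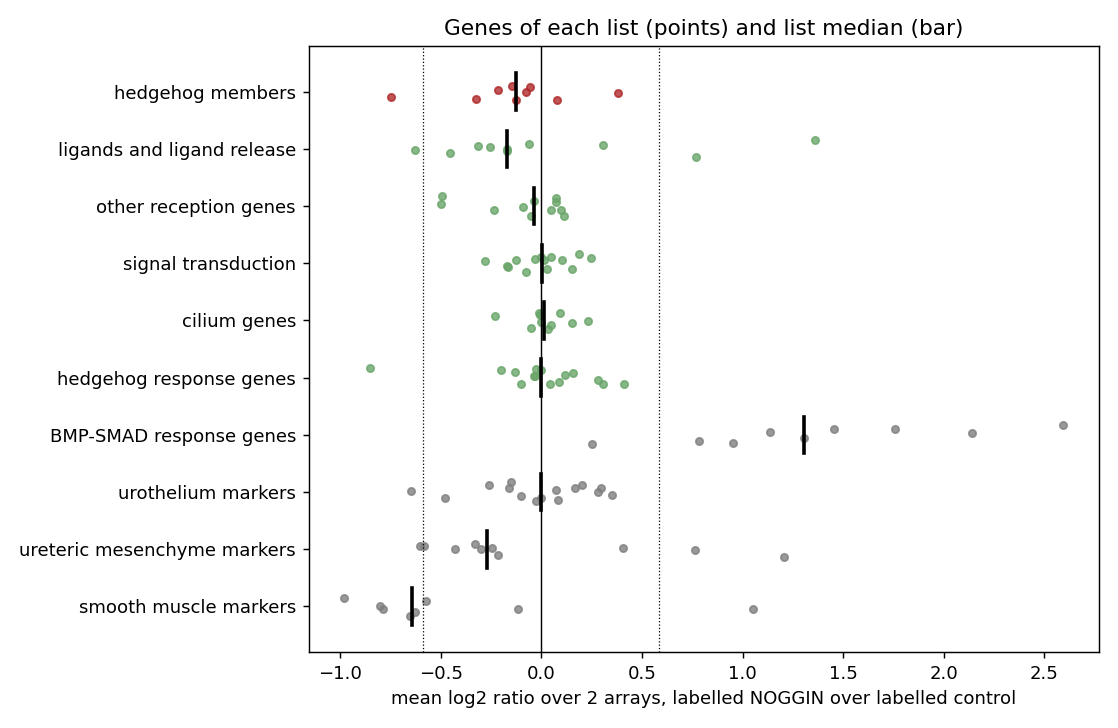
Mean log2 ratio over the 2 arrays, labelled NOGGIN over labelled control, of each gene (points) and the median (bar) for the hedgehog members (red), 5 other pathway lists (green) and 4 comparison lists (grey); dotted lines mark 1.5-fold and vertical scatter within a row has no meaning. Medians of the hedgehog lists lie between -0.17 and 0.02, and that of the BMP-SMAD response genes at 1.31.

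Genes that answer to BMP-SMAD signalling set the scale for the hedgehog values on the same arrays. Of 9 such genes, 8 were higher by the fold rule, with a median of 1.31, and their mean level was 13.35 and 13.27 in samples labelled NOGGIN against 11.90 and 11.97 in samples labelled control. All 9 were higher on both arrays in the channel labelled NOGGIN, so the caution on direction given for Id1 holds for the whole list. The median absolute log2 ratio was 0.143 over the hedgehog genes and 0.102 over all genes. Each hedgehog gene but Ihh was below that BMP-SMAD median in absolute size.

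Promoters of 6 of the 9 members were found in the RefSeq table (build GRCm38.p6): Cdon, Gli2, Gli3, Hhip, Ptch1 and Smo. The upstream 250 bases of the feedback genes Ptch1 and Hhip are shown because both genes are known targets of the pathway. Capitals mark GGCGCC, a GC-rich element known for BMP SMADs, and GGGCGG, the GC box, on either strand.
Ptch1, chr13:63565736-63565985, minus strand: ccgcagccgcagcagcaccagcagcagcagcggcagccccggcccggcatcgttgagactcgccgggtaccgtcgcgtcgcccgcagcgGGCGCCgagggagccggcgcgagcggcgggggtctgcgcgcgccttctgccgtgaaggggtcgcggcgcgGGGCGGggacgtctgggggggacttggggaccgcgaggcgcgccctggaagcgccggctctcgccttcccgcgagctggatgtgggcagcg
Hhip, chr8:80058009-80058258, minus strand: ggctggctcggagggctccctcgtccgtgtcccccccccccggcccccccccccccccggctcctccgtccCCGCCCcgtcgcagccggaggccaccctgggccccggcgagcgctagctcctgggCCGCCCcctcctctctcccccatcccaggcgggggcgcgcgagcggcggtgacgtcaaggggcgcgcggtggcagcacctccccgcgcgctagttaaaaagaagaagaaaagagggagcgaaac
Motifs were searched on both strands in windows that reach a short way past the start. GACCACCCA, the consensus of the GLI factors, was in 0 of 6 member windows and in 0.253% of 32851 windows. CCACCCA, the core within that consensus, was in 0 of 6 and in 9.3% of all. GGCGCC was in 1 of 6 (Ptch1) and in 11.9% of all. GGGCGG was in 4 of 6 (Gli2, Gli3, Hhip and Ptch1) and in 35.7% of all. CAGAC, the short SMAD element, was in 5 of 6, all but Hhip, and in 49.6% of all. These matches describe letters in these windows only.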

How the data were processed

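Both arrays were on 1 slide and came from 1 scan; either condition is present on each. By the dye labels NOGGIN RNA was green on array 1 and red on array 2, with control RNA in the other colour. Per the file headers, the scanner output gives unnormalized intensity per spot, together with processed signals (background-subtracted, dye-normalized) and their deposited log10 ratio of red over green. The software was Agilent Feature Extraction, of version 10.7.3.1 in the submitters' processing notes. The authors' deposited table gives each probe 1 score with a sign. Compared with the scanner values, the score is a linear fold change with a sign and a median of 1 on both arrays. Its correlation with the red over green ratio was 0.906 for array 1 and -0.952 for array 2, so by the dye labels it runs control over NOGGIN; its normalization is unknown.

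Mean signals were corrected by normexp (offset 50) and normalized within each array by loess, giving control spots a weight of 0, in limma 3.58.1 under R 4.3.3. Control spots and flagged spots (3.36% and 3.09%) were left out, and 0 spots were saturated. Each probe's 4 spots were averaged. Of 39429 probes, 29649 were kept: those with most spots well above background on each array in 1 or both channels. In samples labelled NOGGIN 76.9% and 66.4% of probes were above background, and in samples labelled control 65.3% and 76.4%. On each array the higher share was that of the green channel, so the split followed the dye and not the condition. The brightest probe stood for a gene. Names were updated by RefSeq accession (28328 probes, 71.8%, matched). Levels come from Aquantile normalization. Log2 ratios were fitted with lmFit and eBayes, with 1 residual and 4.35 prior degrees of freedom, and two-sided p-values were adjusted by Benjamini-Hochberg over all genes. The ratios of the 2 arrays correlated across genes at r = 0.179 (genes are no independent replicates).

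The hedgehog genes, the other lists and the tests were chosen with earlier results of these data known. Named are all 9 members with every probe; from each other pathway list the genes past the fold rule or else the largest; always Ihh, Dhh, Gas1, Sufu, Foxf1 and Id1; the 3 nearest to Cdon; and markers past the fold rule. Prdm1 and Nkx6-1 were named after their values were seen. A result covered by the naming rule was left out here. On simulated ratios for 22311 genes, the fold rule found 87% of genes changed by 1 on the log2 scale and 100% of those changed by 2. The adjusted p found 8% and 92%, and of 22111 unchanged genes 0.85% and 0.04% passed. The simulated errors were normal and independent between arrays, with no dye or array part, so these rates need not hold for the data. In the data 0 of 22311 genes passed the adjusted p, and Id1, with a mean of 2.14, had 0.07302 from limma. Of the other marker lists, 0 of 6 endothelial, 0 of 6 macrophage, 0 of 4 measured erythroid and 0 of 6 neural crest and glial genes were past the fold rule, and 1 of 6 nephron progenitor genes was lower (Wt1, -0.90). Alternatives changed the background correction, normalization, probe filter, flags, spot averaging, choice of probe, variance estimate and thresholds, or used the authors' values or 1 array. Figures used matplotlib 3.10.9.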

Additional observations from a re-analysis of the deposited data

How the results depend on the processing

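The count of genes past the 1.5-fold rule, 488 as reported, was 869 on the processed signals and 149 at 2-fold, and 961 to 2631 on single arrays. The count of hedgehog members past it, 1 as reported (Cdon), was 0 with median centring, 0 with the mean over all kept probes and 0 at 2-fold, and 1 to 2 on single arrays. On array 2 alone Smo (-0.59) joined Cdon. Cdon ran from -0.79 to -0.54 over 10 settings with the same sign in each, with a lowest adjusted p of 0.2346, and Hhip from 0.34 to 0.64. The count past the adjusted p, 0 as reported, was 35 without background correction, 100 where both channels had to be above background, 114 under median centring, 22 with flagged spots kept, 141 with trend and robust variance, 43 at 0.1 and 273 in the separate-channel fit. None of these settings took a hedgehog member past 0.05, and Cdon came to 0.2099 with trend and robust variance and 0.09706 in the separate-channel fit, under 0.1 in that fit alone. The members' median was -0.39 and 0.003 on single arrays. Of 210 values of 21 named genes, 208 kept their sign over the 10 settings; Smo turned to 0.0077 with scale normalization, and Ptch1 turned to 0.0674 with the mean over all kept probes. The cause was not tested, except that the last change follows from adding probes of other ratio. Ihh (1.36) passed the adjusted p, at 0.04612, with both channels above background, where its unadjusted p was 0.0002177 against 0.0005929 as reported. On array 1 alone against array 2 alone, Ptch1, Smo, Gli1 and Gli2 changed sign. The reported test is itself paired, because each ratio sets the NOGGIN sample of an array against the control sample of that array. This leaves no further block to fit. One Gli1 probe was not above background, so no ratio is given for it.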
